A study of Mus musculus with 6 samples.

Results

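The genes described here are Galnt9, Cplx1, Grm2, Hrh3, Lrrn2 and Ucp1, 6 of 33924 gene symbols measured by RNA sequencing in the mouse embryonic stem cell line E14. They are genes of neurons and other tissues with low levels in these cells, and they were picked because their counts were far lower in the Rif1-KO-labelled libraries than in the control libraries. Their decrease is therefore the way they were chosen and is given as a description without a test. The study compared 3 libraries labelled Control (wild type) with 3 labelled Rif1-KO, to ask how gene expression changes when Rif1, a chromatin protein with roles in replication timing, break repair and silencing, is depleted. The labels give one treatment text for all 6 libraries: 4-OHT (4-hydroxytamoxifen, often used to switch on a Cre recombinase) at 0.1 µM for 2 days and 1 further day without it. Both groups are labelled as grown in 2i medium on 0.1% gelatin at 37 °C and 5% CO2, and 2i is a medium with kinase inhibitors that holds stem cells in naive pluripotency. The column headers read 2i in the control files and TAM in the files labelled Rif1-KO, so whether both groups received 4-OHT, or grew in one medium, is not settled by these sources. How Rif1 was disrupted, and whether each group is 1 clone or several, is not given in the sources used here.

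Most of the 6 genes are best known from the nervous system. At a synapse, calcium entry triggers fusion of transmitter vesicles through the SNARE proteins, and Cplx1 encodes complexin 1, a small protein that binds the assembled SNARE complex and sets when fusion occurs. Grm2 encodes a metabotropic glutamate receptor and Hrh3 a histamine receptor. Both couple to inhibitory G proteins and sit on nerve endings, where they lower transmitter release. Lrrn2 encodes a membrane protein with leucine-rich repeats, a module common in neuronal adhesion proteins. Galnt9 encodes a brain-enriched member of the Golgi enzymes that attach the first sugar of mucin-type O-glycans to proteins. Ucp1 encodes the uncoupling protein of brown fat mitochondria, which lets protons leak back into the matrix and releases the energy as heat.

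Each of the 6 symbols matched a promoter entry in RefSeq (GRCm38.p6), a window from 250 bases before to 50 bases after the start of the transcript. Galnt9 had 2 such windows. The count files were made on another build, mm9, so the coordinates below are those of RefSeq and not of the counted reads. Promoters of 3 genes are shown because they differ in a motif: those of Hrh3 and Grm2 hold both parts of the recognition sequence of REST, a repressor of neuronal genes outside neurons, and that of Ucp1 holds a TATA-like element. The parts were searched on both strands as CAGCACC and GGACAGC, with at most 30 bases between them on one strand, and the TATA-like element as TATANA. The motifs were picked with these promoters in view. Capitals mark the matches, and overlapping matches are joined.
Hrh3, chr2:180104358-180104657, minus strand: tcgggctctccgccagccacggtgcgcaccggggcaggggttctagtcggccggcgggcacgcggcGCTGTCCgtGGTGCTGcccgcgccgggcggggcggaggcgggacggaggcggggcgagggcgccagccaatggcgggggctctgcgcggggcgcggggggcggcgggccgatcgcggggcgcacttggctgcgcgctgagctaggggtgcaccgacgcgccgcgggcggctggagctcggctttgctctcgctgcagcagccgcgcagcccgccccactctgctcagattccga
Grm2, chr9:106656060-106656359, minus strand: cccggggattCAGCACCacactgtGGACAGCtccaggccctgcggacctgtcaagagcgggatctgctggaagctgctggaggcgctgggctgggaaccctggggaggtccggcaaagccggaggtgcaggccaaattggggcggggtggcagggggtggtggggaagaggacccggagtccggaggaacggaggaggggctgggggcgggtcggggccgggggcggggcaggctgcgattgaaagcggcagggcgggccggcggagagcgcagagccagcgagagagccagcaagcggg
Ucp1, chr8:83290098-83290397, plus strand: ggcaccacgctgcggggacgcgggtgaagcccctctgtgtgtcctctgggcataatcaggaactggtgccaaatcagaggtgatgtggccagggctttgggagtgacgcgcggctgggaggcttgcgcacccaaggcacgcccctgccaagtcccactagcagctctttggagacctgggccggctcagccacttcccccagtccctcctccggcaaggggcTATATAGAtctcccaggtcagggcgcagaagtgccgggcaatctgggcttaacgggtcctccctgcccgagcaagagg

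In Hrh3 the parts lie 2 bases apart on the strand opposite to the gene. In Grm2 they lie 7 bases apart on the strand of the gene. Both parts were found in 25 of 32817 RefSeq promoter windows of this length (0.0762%), against 7.14% with CAGCACC and 6.56% with GGACAGC alone. The second Galnt9 window held GGACAGC alone, and no other window of the 6 genes held either part. TATANA was found at base 223 to 228 and again at base 225 to 230 of the Ucp1 window and in 24.7% of all windows. The first Galnt9 window and those of Cplx1, Grm2 and Hrh3 held 3, 2, 4 and 5 copies of GGGCGG, the core of the binding sequence of SP1-type factors, which 35.6% of all windows held at least once. Lrrn2 and Ucp1 held none. GC content of the 4 windows with copies was 73.7%, 67.0%, 72.0% and 79.0% in the same order, against a median of 52.7%. The shares over all windows given here were not matched for GC content. CpG dinucleotides were plentiful in the Hrh3 window (47) and the first Galnt9 window (41). Cplx1 had 24, Grm2 22, Lrrn2 16 and Ucp1 15, and the second Galnt9 window had 2, where the median over all windows was 7. These matches describe the letters of the windows and show no binding.

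Of the 25 genes with both parts of the REST sequence, 23 are not among the 6, and 8 of these were tested. Kcnh6 and Unc13a fell, none rose and 6 did not pass, so that 2 of 8 fell where 24.8% of all tested genes did. Kcnh6, a potassium channel gene, fell from 3.96 ± 0.504 to 2.60 ± 0.551 CPM (SD, n = 3), a difference of −0.61 ± 0.22 on the log2 scale (adjusted p = 0.0237). The list was made after the decrease of Hrh3 and Grm2 was known.

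Total counts ran from 8383632 to 10980777 per library. Whether replicates came from separate cultures is not stated, and p-values reflect nothing beyond the spread among these 6 samples, which may be technical. Levels are CPM, read counts relative to library size after TMM scaling, a correction for library composition. Fold changes have control as the base. Genes are said to rise or fall at an adjusted p under 0.05 in the edgeR quasi-likelihood test (Benjamini-Hochberg, 14250 tested genes), the source of every adjusted p unless another tool is named. Rif1 itself stood at 673, 657 and 700 CPM in control and at 602, 604 and 664 CPM in the Rif1-KO-labelled libraries (log2 fold change −0.12 ± 0.05, adjusted p = 0.0509). It passed in 10 of 16 alternative analyses, and its log2 fold change was −0.31 ± 0.04 (adjusted p = 3.11e-06) once GC content and length were offset. Counts summed over all exons would miss a deletion of a few of them, so they leave the label unchecked, and the group is named by its label. All 12 embryonic stem cell markers were read, with a summed level of 7070 to 7460 CPM in control and 7360 to 7750 CPM in the Rif1-KO-labelled libraries. Single markers differed, with 5 that rose (Tcfcp2l1 from 1500 to 1870 CPM), 4 that fell (Sox2 from 683 to 469 CPM) and 3 that did not pass. Over all tested genes, 26.1% rose and 24.8% fell.

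All 6 genes began at low levels, from 2.19 CPM for Lrrn2 to 7.87 CPM for Cplx1 as control means, where the median of all tested genes was 26.5 CPM. In the control libraries each was covered by 16 to 77 reads, and in the Rif1-KO-labelled libraries by 2 to 11. Every one of the 6 had a higher CPM in each control library than in any Rif1-KO-labelled library, a pattern seen at 27.8% of tested genes (57.2% had groups apart in either direction). All 6 were also called lower, as were 24.8% of tested genes (50.9% were called in either direction). Both counts follow from the choice of the genes. The filter on low counts asks for about 1.09 CPM in at least 3 libraries. All 3 control libraries and none of the Rif1-KO-labelled libraries met it for each of the 6, so these genes were tested on account of their control counts. In bulk RNA, fewer cells that express a gene and less RNA per cell cannot be told apart.

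Cplx1, the vesicle fusion regulator, was the most highly read of the 6. Its control libraries had 8.33, 8.87 and 6.42 CPM, against 0.994, 1.01 and 0.656 CPM in those labelled Rif1-KO. The groups lay far apart, with the lowest control library 6.35 times the highest Rif1-KO-labelled library, and replicate 3 was the lowest in both groups. In counts these are 208 reads against 27, a ratio of 8.75 with an exact 95% interval of 5.84 to 13.6, and the fitted log2 fold change was −3.11 ± 0.24 (SE). Such intervals, here and for the other genes below, reflect counting error alone, and reads that carry no molecular identifier may be copies of one molecule. They take no account of the choice of the 6 genes for large decreases in these same counts. That they lie above 1 therefore follows from that choice.

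Grm2, the glutamate receptor, stood at 3.03, 4.37 and 3.54 CPM in control and at 0.271, 0.606 and 0.766 CPM in the Rif1-KO-labelled libraries. Control replicates lay close together, while the 3 low libraries differed from each other by up to 2.82 times on 3, 6 and 7 reads. The ratio of 96 to 16 reads was 6.81 (3.99 to 12.4), and the log2 fold change was −2.74 ± 0.33.

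Hrh3, the histamine receptor, had the smallest decrease of the 6. Its levels were 2.92, 1.94 and 2.77 CPM in control and 0.271, 0.808 and 0.766 CPM in the Rif1-KO-labelled libraries. Here the groups came closest, with the lowest control library at 2.41 times the highest Rif1-KO-labelled library. The ratio of 68 to 18 reads was 4.29 (2.52 to 7.66), and the log2 fold change was −2.07 ± 0.35. The reference places an antisense gene, Gm17180, across part of Hrh3. It had 1 control read and 0 in the Rif1-KO-labelled libraries, and whether the counting used strand is not given in the sources used here.

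Lrrn2, the leucine-rich repeat protein, was the lowest of the 6 in control and the most even. It stood at 2.38, 2.31 and 1.88 CPM in control and at 0.452, 0.505 and 0.328 CPM in the Rif1-KO-labelled libraries. No library stood out in either group. The ratio of 58 to 13 reads was 5.07 (2.74 to 10.1), and the log2 fold change was −2.31 ± 0.35.

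Galnt9, the O-glycan enzyme, had the largest decrease and also the widest control spread. Its control levels were 3.57, 2.43 and 5.31 CPM, so that replicate 3 was 2.19 times replicate 2. The libraries labelled Rif1-KO had 0.271, 0.202 and 0.547 CPM, from 3, 2 and 5 reads. The ratio of 101 to 10 reads was 11.5 (5.99 to 24.6), and the log2 fold change was −3.47 ± 0.41. This was the lowest value among the 14250 tested genes.

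Ucp1, the brown fat uncoupler, stood at 4.54, 2.67 and 3.65 CPM in control. In the Rif1-KO-labelled libraries it stood at 0.994, 0.303 and 0.328 CPM. Replicate 1 held 11 of the group's 17 reads and stood at 3.28 times replicate 2. The ratio of 97 to 17 reads was 6.48 (3.84 to 11.6). The log2 fold change was −2.67 ± 0.36, and −3.48 ± 0.44 without Rif1-KO replicate 1, so the size of this decrease rests in part on 1 library.

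**Figure D1:**
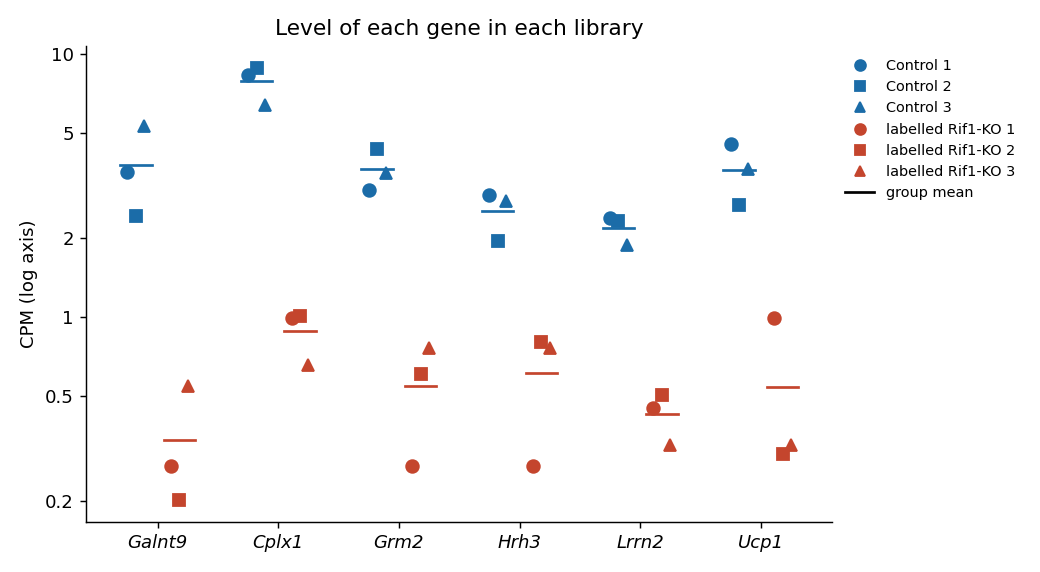
CPM (log axis) of the 6 genes in each library, with control in blue, the Rif1-KO-labelled libraries in red, replicates by marker shape and group means as bars. For each gene the 3 control libraries lie above the 3 Rif1-KO-labelled libraries, and the gap is narrowest for Hrh3 (2.41 times) and widest for Cplx1 (6.35 times).

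Set against its own control mean, a Rif1-KO-labelled library kept between 5.36% (Galnt9, replicate 2) and 31.8% (Hrh3, replicate 2) of a gene's level. No Rif1-KO-labelled library was the lowest for all 6 genes. Replicate 1 was the lowest for Grm2 and Hrh3 and the highest for Ucp1, replicate 2 was the lowest for Galnt9 and Ucp1, and replicate 3 for Cplx1 and Lrrn2. Summed over the 6 genes, a sum formed after their values were seen, control libraries held 24.8, 22.6 and 23.6 CPM and the Rif1-KO-labelled libraries 3.25, 3.43 and 3.39 CPM. The sums were thus nearly level within each group (23.6 ± 1.08 and 3.36 ± 0.0943 CPM, SD, n = 3), although single genes were not. In the Rif1-KO-labelled libraries counting alone gives an SD of 0.185 CPM for Galnt9 by itself, more than that of the sum. Such evenness over 3 libraries is therefore no measure of precision.

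Much of the spread of single genes is of the size that counting alone gives at these depths. For Grm2 the control SD was 0.680 CPM where counting gives 0.643 CPM, and for Hrh3 it was 0.524 against 0.537 CPM. Lrrn2 varied less than counting gives in both groups (0.270 against 0.498 CPM in control). Galnt9 in control was the clearest departure, with an SD of 1.45 CPM, 2.22 times that of counting, while in the Rif1-KO-labelled libraries its SD of 0.182 CPM was 0.984 times it. Ucp1 exceeded counting in both groups, 1.46 times in control and 1.68 times in the Rif1-KO-labelled libraries. As a share of the mean, control SDs ran from 12.3% for Lrrn2 to 38.5% for Galnt9. Over 2322 tested genes with control means in the range of the 6, the median was 14.6%, with quartiles of 9.31% and 21.0%. Galnt9 and Ucp1 (25.8%) lay above the upper quartile. In the Rif1-KO-labelled libraries, where the 6 were read 2 to 11 times each, the SDs ran from 21.2% of the mean for Lrrn2 to 72.4% for Ucp1, against a median of 12.9% over the same 2322 genes.

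**Figure D2:**
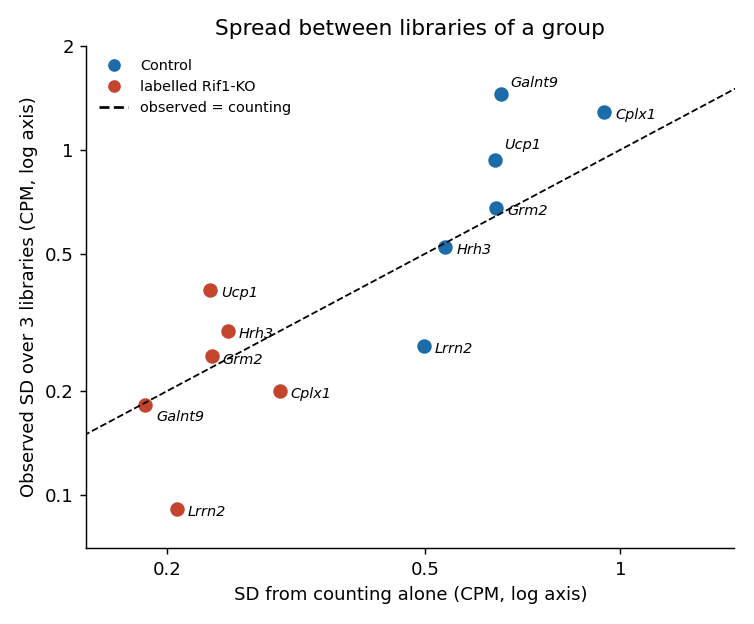
Observed SD over the 3 libraries of a group (CPM, log axis) against the SD that counting alone gives (CPM, log axis), for the 6 genes in control (blue) and in the Rif1-KO-labelled libraries (red), with the line of equality dashed. Galnt9 in control lies farthest above the line (2.22 times) and Lrrn2 lies below it in both groups.

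Among all tested genes the 6 hold ranks 1, 4, 6, 7, 8 and 9 by log2 fold change, counted from the lowest. The other 3 of the lowest 9 are 1700060C20Rik, Hist2h3c1 and Cox6a2. Of the 2322 tested genes with a control mean between 2.19 and 7.87 CPM, 7 had a log2 fold change as low as that of Hrh3 or lower, namely the 6 and Cox6a2. The ranks and this count follow from the choice of the 6 for large decreases. In that range 14% of genes were called lower and 23.4% higher, and the median log2 fold change was 0.055. There 20 genes, called or not, had a fitted value at least 4-fold higher. The median over all tested genes was 0.003.

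**Figure D3:**
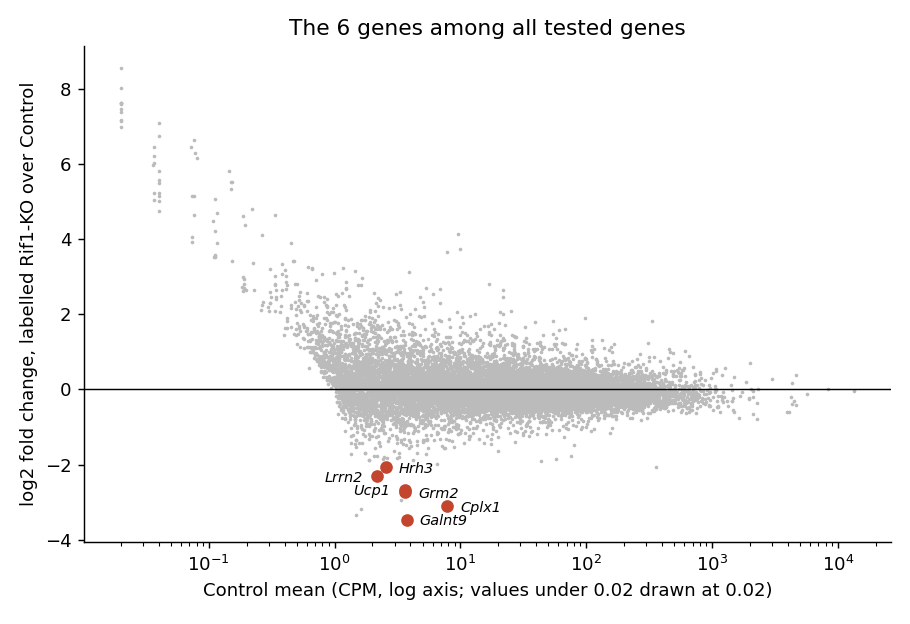
Log2 fold change of the 14250 tested genes (grey points) against their control mean (CPM, log axis), with the 6 genes in red. The 6, chosen for large decreases, lie at the lower edge, between −2.07 for Hrh3 and −3.47 for Galnt9, at control means of 2.19 to 7.87 CPM.

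Transcripts of 5 of the 6 genes were rich in G and C. GC content, over the longest reference transcript, was 62.2% for Hrh3, 60.4% for Lrrn2, 59.7% for Galnt9, 56.9% for Grm2 and 56.0% for Cplx1, against a median of 50% over tested genes, and 47.1% for Ucp1. The 2343 tested genes within the GC range of the 5 had a median log2 fold change of −0.057, and 30.3% of them were called lower. An offset for GC content and length moved no log2 fold change of the 6 by more than 0.09. Per kilobase of transcript, the control means were 3.60 CPM for Cplx1, 2.21 for Ucp1, 1.31 for Galnt9, 0.940 for Hrh3, 0.774 for Grm2 and 0.639 for Lrrn2. On that scale Ucp1 and Galnt9, nearly level in CPM, stood apart, since the transcript of Ucp1 is the shortest of the 6 (1636 bases) and that of Galnt9 has 2883.

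The paralogs of the 6 genes were not used to choose them. Of 38 paralogs, 18 were tested, of which 2 fell (11.1%), 6 rose (33.3%) and 10 did not pass, where 24.8% of all tested genes fell and 26.1% rose. Their median log2 fold change was 0.11. No tested paralog fell as far as the gene it is related to. The 6 were picked for their large decreases, so this contrast follows from the choice. The difference between a gene and its paralog was not tested.

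The complexin family was read mainly through Cplx1. Cplx2, the close relative of Cplx1 in brain, stood at 1.19, 0.972 and 1.11 CPM in control and 1.27, 0.707 and 0.875 CPM in the Rif1-KO-labelled libraries, with groups that overlap (log2 fold change −0.18 ± 0.35, adjusted p = 0.708). Cplx3 and Cplx4, complexins of the retina, were not tested, and Cplx4 had no read. Cplx1 thus made up 93.6% of the family's CPM per kilobase in control and 66.6% in the Rif1-KO-labelled libraries.

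Among metabotropic glutamate receptors, Grm3, which pairs with Grm2 in one subgroup, had no control read and 1 of the 3 Rif1-KO-labelled libraries at 0.101 CPM. Grm4, another receptor coupled to inhibitory G proteins, stood at 4.00, 4.37 and 5.09 CPM in control and at 3.61, 3.43 and 2.95 CPM in the Rif1-KO-labelled libraries. Its groups did not overlap, but the difference did not pass (log2 fold change −0.42 ± 0.19, adjusted p = 0.0717). Grm5, Grm6 and Grm7 had no read in any library. Among histamine receptors no paralog was tested. Hrh2, which acts in the stomach, stood at 0.521 ± 0.413 and 0.394 ± 0.174 CPM (SD, n = 3), Hrh1 was lower still and Hrh4 had no read.

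In the Lrrn family 1 paralog rose. Lrrn1 stood at 1.19, 3.28 and 1.33 CPM in control, with replicate 2 well above the others, and at 5.69, 5.76 and 7.33 CPM in the Rif1-KO-labelled libraries. It rose with a log2 fold change of 1.71 ± 0.26 (adjusted p = 1.72e-05). Lrrn4, with means of 2.83 ± 0.756 and 3.88 ± 0.0558 CPM, was not called (adjusted p = 0.0827). The share of Lrrn2 in the family's CPM per kilobase was 32.1% in control and 4.26% in the Rif1-KO-labelled libraries.

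The enzyme family of Galnt9 is large and was read mostly through other members. Of 18 paralogs 11 were tested, 4 rose, 1 fell and 6 did not pass, where 26.1% of all tested genes rose and 24.8% fell. Galnt1 had the highest level per kilobase in both groups and did not pass (78.5 ± 2.64 and 81.3 ± 6.08 CPM, adjusted p = 0.479). Galnt3 stood at 1.95, 2.43 and 2.21 CPM in control and 9.22, 9.90 and 11.5 CPM in the Rif1-KO-labelled libraries, a rise of 2.21 ± 0.18 on the log2 scale (adjusted p = 4.32e-09). Galnt4, Galnt11 and Wbscr17 (now Galnt17) rose by 0.67 ± 0.14, 0.25 ± 0.06 and 0.83 ± 0.22. Galntl1 (now Galnt16) was the one that fell, from 9.57 ± 0.250 to 4.26 ± 0.734 CPM, a difference of −1.18 ± 0.15 on the log2 scale (adjusted p = 2.87e-06). Galnt9 held 2.40% of the family's CPM per kilobase in control and 0.201% in the Rif1-KO-labelled libraries, and the family's sum was 54.5 and 58.7 CPM per kilobase.

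Ucp1 is likewise a minor member of its family in these cells. Ucp2, a widely expressed relative, stood at 174, 187 and 176 CPM in control and at 126, 123 and 120 CPM in the Rif1-KO-labelled libraries, and fell (log2 fold change −0.54 ± 0.05, adjusted p = 1.50e-08). Slc25a14, a brain relative, rose by 0.58 ± 0.19 (adjusted p = 0.0178), but DESeq2 did not call it (adjusted p = 0.0599), nor did edgeR without control replicate 2 (0.0941) or 3 (0.083). Slc25a27 did not pass and Ucp3, the muscle form, was under 1 CPM in every library and not tested. Ucp1 held 4.23% of the family's CPM per kilobase in control and 0.891% in the Rif1-KO-labelled libraries.

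**Figure D4:**
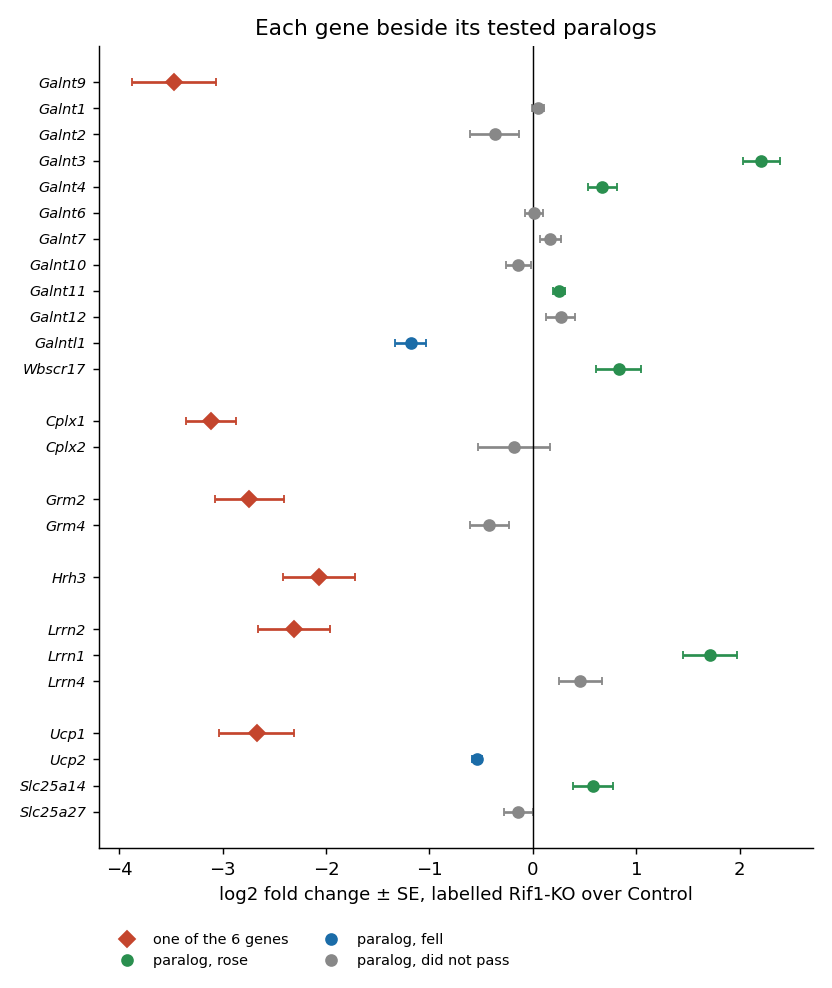
Log2 fold change with its SE for each of the 6 genes (red diamonds) and its tested paralogs (circles: green rose, blue fell, grey did not pass), grouped by family. Tested paralogs run from −1.18 (Galntl1) to 2.21 (Galnt3), all to the right of the gene that heads their family. That order follows from the choice of the 6 for large decreases. Hrh3 had no tested paralog.

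Over 5 lists of genes from the pathways around the 6, 111 were tested, of which 22 fell (19.8%) and 32 rose (28.8%). These shares are near those of all tested genes, 24.8% and 26.1%. Among 29 tested genes of synaptic vesicle fusion, 3 fell, 9 rose and 17 did not pass, with a median log2 fold change of 0.05. Rab3a, a small GTPase of synaptic vesicles, fell from 10.9 ± 0.920 to 4.82 ± 1.44 CPM (SD, n = 3), a difference of −1.15 ± 0.17 on the log2 scale (adjusted p = 1.18e-05). Unc13a, a vesicle priming gene, and Syt5, a synaptotagmin, also fell. Pclo, a scaffold of the release site, rose from 2.17 ± 0.430 to 7.31 ± 0.807 CPM (1.73 ± 0.20, adjusted p = 4.28e-07). Unc13b and Syngr1 rose by 0.41 ± 0.05 and 0.37 ± 0.06.

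Among 31 tested genes of glutamate and histamine signalling, 5 fell, 11 rose and 15 did not pass, with a median of 0.12. The shares over all tested genes were 24.8% that fell and 26.1% that rose. Grin1, the obligate subunit of NMDA receptors, stood at 60.4, 71.4 and 66.4 CPM in control and 29.0, 26.7 and 26.1 CPM in the Rif1-KO-labelled libraries (log2 fold change −1.27 ± 0.07, adjusted p = 3.97e-11). This was the lowest log2 fold change among the 173 tested genes of all lists. Grik4, a kainate receptor subunit, fell by 1.05 ± 0.11. The inhibitory G protein gene Gnai1 rose from 10.8 ± 1.71 to 30.6 ± 2.90 CPM (1.51 ± 0.11, adjusted p = 1.16e-09), and Gnai2, Gnai3, Gnao1 and Gnaz rose as well. Shank1, a postsynaptic scaffold, rose by 1.01 ± 0.13.

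Of 17 tested genes that extend or cap mucin-type O-glycans, 3 fell, 5 rose and 9 did not pass (median 0.08). The sialyltransferase genes St3gal1 and St6galnac6 changed by 0.89 ± 0.16 and −0.33 ± 0.07, and the branching enzyme genes Gcnt1 and Gcnt4 rose by 0.42 ± 0.09 and 0.76 ± 0.16. Of 17 tested leucine-rich repeat adhesion genes, 5 fell, 5 rose and 7 did not pass (median 0.03). For both lists, the shares over all tested genes are 24.8% that fell and 26.1% that rose. Lrfn1 fell from 14.4 ± 2.26 to 7.87 ± 1.05 CPM (−0.87 ± 0.14), Lrfn4 by 0.51 ± 0.08 and Lrig1 by 0.42 ± 0.07, while Flrt2 rose by 0.91 ± 0.16. The count of 5 that rose was 3 with DESeq2, with an offset for GC content and length, and without control replicate 1 or Rif1-KO replicate 1.

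Of 17 tested genes for REST and its corepressors, 6 fell, 2 rose and 9 did not pass (median 0.06). Among all tested genes, 24.8% fell and 26.1% rose. Rest stood at 407, 408 and 409 CPM in control and at 323, 327 and 320 CPM in the Rif1-KO-labelled libraries (log2 fold change −0.33 ± 0.04, adjusted p = 2.08e-06). The evenness of its 3 control libraries is no measure of precision. Rcor2 fell from 102 ± 5.45 to 67.3 ± 3.85 CPM (−0.59 ± 0.06), the histone deacetylase gene Hdac1 fell by 0.38 ± 0.05, and Rcor1 rose by 0.26 ± 0.06. Once GC content and length were offset 5 of the 17 rose, and 4 without Rif1-KO replicate 3.

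Markers of the cell types that these genes are known from were read at uneven levels. The 20 neuron markers summed to 371 to 430 CPM in control and 348 to 359 CPM in the Rif1-KO-labelled libraries, with Stmn2 alone at 211 ± 21.6 and 173 ± 2.17 CPM. Of 15 tested, 5 fell, 4 rose and 6 did not pass. For this and the other marker lists, the shares over all tested genes are 24.8% that fell and 26.1% that rose. Dcx, a defining gene of young neurons, had no read, and Rbfox3 stood at 1.48 ± 0.451 and 0.909 ± 0.185 CPM. Of those that fell, Chga went from 35.3 ± 3.25 to 14.9 ± 0.749 CPM and Ina from 3.84 ± 0.505 to 1.73 ± 0.186 CPM, while Nefm rose from 3.09 ± 0.421 to 7.70 ± 1.11 CPM. The 10 glia markers summed to 176 to 184 CPM in control and 177 to 181 CPM in the Rif1-KO-labelled libraries, and Aldh1l1 alone gave 153 and 147 CPM of this. Gfap, S100b, Olig1, Olig2 and Sox10 were under 1 CPM in every library. Of the list Aqp4 had no control read, and of 4 tested none fell, 1 rose (Mbp, adjusted p = 0.0417, a call lost with DESeq2 and limma-voom and without any control replicate or Rif1-KO replicate 3) and 3 did not pass. The 10 fibroblast markers summed to 26.6 to 36.7 CPM in control and 36.6 to 39.5 CPM in the Rif1-KO-labelled libraries, with Lum at 0, and of the 5 that were tested 2 rose and 1 fell. What part other cell types have in the levels of the 6 genes was not tested.

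Around Ucp1, the defining genes of fat cells had few or no reads. Pparg, Fabp4, Plin1 and Elovl3 had no read in any library and Adipoq none in control. The 20 brown fat markers summed to 91.5 to 94.9 CPM in control and 99.4 to 108 CPM in the Rif1-KO-labelled libraries. Of 8 tested, 3 fell, 2 rose and 3 did not pass, where 24.8% of all tested genes fell and 26.1% rose. Ppargc1a, a coactivator known to act on Ucp1, was too low to be tested and had 0, 1 and 0 reads in control and 16, 10 and 20 in the Rif1-KO-labelled libraries. Prdm16, a regulator of brown fat identity also expressed elsewhere, fell from 33.5 ± 0.389 to 20.3 ± 0.349 CPM, and Adrb3, a beta-adrenergic receptor gene, rose from 27.2 ± 0.567 to 53.4 ± 2.45 CPM. The count of 3 that fell was 1 without control replicate 3.

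The genes on either side of each of the 6 had smaller log2 fold changes. This contrast follows from the choice of the 6 for large decreases. Galnt9 and Cplx1 lie on chromosome 5, Grm2 on 9, Hrh3 on 2, Lrrn2 on 1 and Ucp1 on 8. Of 12 nearest coding genes, 11 were tested, of which 3 fell, 3 rose and 5 did not pass, between −0.35 and 1.17 on the log2 scale. Over all tested genes, 24.8% fell and 26.1% rose. Both neighbours of Galnt9 fell slightly, Fbrsl1 by 0.34 ± 0.05 and Noc4l by 0.35 ± 0.06. Nfasc, a neuronal adhesion gene beside Lrrn2, fell by 0.35 ± 0.10. Beside Ucp1, Tbc1d9 rose from 26.7 ± 2.01 to 60.0 ± 1.48 CPM (1.17 ± 0.07, adjusted p = 5.53e-11), and Elmod2 did not pass (−0.07 ± 0.05, adjusted p = 0.311), but fell by 0.20 ± 0.05 (adjusted p = 0.00236) once GC content and length were offset. Tex264 beside Grm2 and Gak beside Cplx1 rose by 0.58 ± 0.08 and 0.18 ± 0.05. Pcgf3 on the other side of Cplx1 did not pass (0.01 ± 0.05), but fell by 0.14 ± 0.05 (adjusted p = 0.0253) once GC content and length were offset. Mdm4, on the other side of Lrrn2, did not pass (0.12 ± 0.06, adjusted p = 0.0956), and its call depended on the setting. Neither neighbour of Hrh3 passed.

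**Figure D5:**
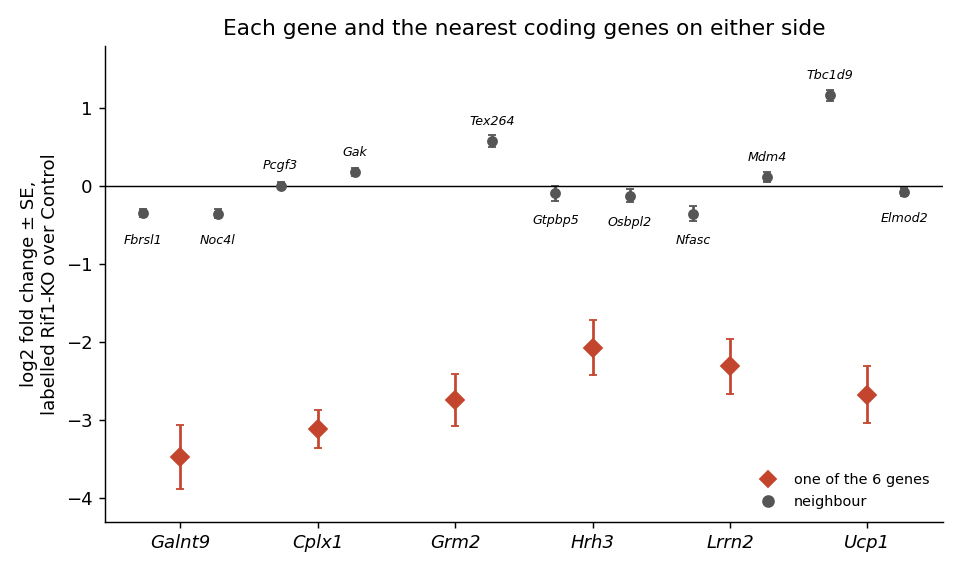
Log2 fold change with its SE for each of the 6 genes (red diamonds) and the nearest coding gene on either side (grey circles). The neighbours lie between −0.35 and 1.17, while the 6 genes, chosen for large decreases, lie between −3.47 and −2.07. Iqcf6, beside Grm2, was not tested.

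The tested genes with the most similar profile were found by the Euclidean distance of log2 CPM over the 6 libraries, a measure that takes in both level and change. Cox6a2, a cytochrome oxidase subunit of muscle, was the nearest to Galnt9 (distance 1.02), Grm2 (0.94) and Ucp1 (1.08). It stood at 3.39 ± 0.225 CPM in control and 0.431 ± 0.0245 CPM in the Rif1-KO-labelled libraries. Grm2 was the second nearest to Galnt9, and Hrh3 the second nearest to Grm2. Hrh3 itself was nearest to Gna14 (0.80), a G protein gene at 2.07 ± 0.304 and 0.606 ± 0.279 CPM, and to the forkhead gene Foxr1 (0.88). Lrrn2 was nearest to Foxr2 (0.67), another forkhead gene, and to Zan (0.81), which encodes a sperm protein. Ntng2, which encodes the neuronal surface protein netrin-G2, was the nearest to Cplx1 (1.61), at 4.20 ± 0.723 and 1.12 ± 0.122 CPM, followed by 1700123I01Rik (1.70). Mag, a myelin gene, was second to Ucp1 (1.51). These genes were chosen for their likeness, so their decreases are no separate support.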

How the data were processed

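Each library has a table of raw counts by gene symbol, deposited by the authors without normalization. STAR did the alignment to mm9 and featureCounts 1.6.2 the counting, per the submitters' processing notes. The sources used here name no annotation, strand setting or rule for multi-mapping reads. The input was 200 ng of RNA for a kit that selects mRNA, per the labels' protocols.

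The counts of all 6 libraries went into one edgeR 4.0.16 model (R 4.3.3) with group as its term, TMM scaling, filterByExpr with a minimum count of 10, the quasi-likelihood test and Benjamini-Hochberg adjustment. An error after ± is an SD over 3 libraries for CPM and a standard error for log2 fold changes. The test was checked on simulated data. Alternatives were other scalings, DESeq2 1.42.0, limma-voom (limma 3.58.1), other filters, a replicate block, an offset for GC content and length (known for 97.7% of tested genes), and leaving out each library. Names, neighbours, GC content and length come from GENCODE annotation of GRCm38. Distances between profiles use log2 CPM with a prior count of 2.

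The 6 genes, the gene lists and the promoter motifs were chosen with earlier results of these data known. By rule the text names the 6, Rif1, called paralogs, up to 4 called genes per pathway list, the neighbours, and the 2 most similar genes of each. Others are named after their values were seen.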

Additional observations from a re-analysis of the deposited data

How the results depend on the processing

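The 6 genes stayed lower under all 16 alternatives. Over the 10 that keep every library, log2 fold changes ran from −3.51 to −3.36 for Galnt9, −3.14 to −3.05 for Cplx1, −2.77 to −2.70 for Grm2, −2.12 to −1.97 for Hrh3, −2.35 to −2.23 for Lrrn2 and −2.77 to −2.65 for Ucp1. Without 1 library they ran from −3.92 to −3.14, −3.24 to −2.95, −3.04 to −2.38, −2.34 to −1.68, −2.43 to −2.17 and −3.48 to −2.38 in the same order. At 2 to 11 reads in a Rif1-KO-labelled library, depth limits how well the sizes are known. The filter at 1 CPM in 3 libraries, planned as the stricter one, kept more genes than the main filter (14397). Over all genes, 3029 to 4000 were called higher and 2879 to 3830 lower in alternatives with every library, and 3288 to 3667 and 3037 to 3432 without 1 library, against 3722 and 3529.

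The counts of called list genes that moved by more than 1.5 times were small. Leucine-rich repeat adhesion genes that rose numbered 3 with DESeq2 and with the GC and length offset, and 3 to 5 without 1 library. REST and corepressor genes that rose numbered 5 with the offset, 5 with the offset and a replicate block, and 2 to 4 without 1 library. The glia marker that rose was lost (0) with DESeq2 and limma-voom, and the count was 0 to 1 without 1 library. Brown fat markers that fell numbered 1 to 3 without 1 library.

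Signs turned for 3 neighbours that had not passed. Gtpbp5 ran from −0.17 to 0.00 without 1 library, the latter without Rif1-KO replicate 3. Mdm4 stood at −0.03 with the offset and −0.03 with offset and block, but was called higher with a replicate block (adjusted p = 0.0214), with no filter (0.0452), and without control replicate 1 (0.035) or Rif1-KO replicate 2 (0.0383). Pcgf3 stood at −0.14 with either and ran from −0.03 to 0.05 without 1 library, at −0.03 without control replicate 3 and −0.01 without Rif1-KO replicate 3. The cause was not tested. Replicate numbers showed no clear pairing of the samples. Deviations of same-numbered libraries correlated at 0.0793, −0.0646 and 0.0461, and not every library correlated best with its own number. With 3 libraries per group this check cannot exclude pairing. With a replicate block 3779 genes rose and 3607 fell.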
